A study of Mus musculus with 2 samples.

Results

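Pseudogene starts that lie apart from the 5′ ends of coding and lncRNA genes in the RefSeq gene table were examined for trimethylation of histone H3 at lysine 4 (H3K4me3) in E14TG2a.4 mouse embryonic stem cells. A start was kept when its gene had a pseudogene biotype in the RefSeq mm10 gene table, could be given a strand by name and chromosome from GENCODE vM1, and had its 5′ end more than 5 kb from every protein-coding and lncRNA 5′ end. Of 10609 pseudogenes on the chromosomes, 3772 had a strand, and 3294 of these passed the distance rule. The other 478 lay within 5 kb of a coding or lncRNA start, and 6837 pseudogenes without a strand were not used. The rule used no measured value. Other annotations still place starts nearby: 19 members had a start of the RefSeq promoter table within 5 kb, and in mm9 33 had another coding and 38 another noncoding vM1 start within 1 kb. RefSeq typed 3057 of the 3294 as pseudogene, 226 as transcribed pseudogene, 7 as immunoglobulin or T cell receptor V or J segment pseudogenes and 4 as noncoding RNA pseudogenes. At the distance limit, Gm4775 (5032 bp) and Olfr1073-ps1 (5066 bp) were just inside and had no peak, and Olfr718-ps1 (5072 bp) had one. Gm12857 (4986 bp) and Gm6881 (4993 bp) were just outside without a peak, and Anp32b-ps1 (4995 bp), also outside, had one with a signal of 3.31.

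Both biological replicates belonged to 1 group: E14TG2a.4, a male line of strain 129/Ola, given as embryonic with an age of 3.5 days, and no treatment was named. With 1 group there was no contrast between conditions, and both replicates come from a single line and donor. The number of reads per library is unknown here, and peak numbers can depend on it. Each peak carries the authors' signal value, which relates ChIP to control as a ratio. Enrichment below the threshold of a list is not recorded, so an unmarked start is one without a listed peak.

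All 8 stem cell markers had a replicated peak at the 5′ end, from a signal of 16.1 at Dppa5a to 69.4 at Pou5f1. Of 5 genes of feeder fibroblasts, Col1a1 (15.7) and Thy1 (23.4) had a peak and Col3a1, Acta2 and Postn had none. Their part in the peaks at pseudogenes was not tested.

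Pseudogenes are copies of genes that have lost the capacity to make the original protein. Processed pseudogenes arise when a messenger RNA is reverse transcribed and inserted elsewhere in the genome, so they usually lack introns and the promoter upstream of the parent gene. Unprocessed pseudogenes arise by duplication of genomic DNA or by decay of a gene in place and can keep the original promoter. H3K4me3 is deposited at promoters, above all where CpG dinucleotides are dense and unmethylated, and in embryonic stem cells it also lies at many CpG-rich promoters of silent genes.

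The sequences at 4 of the starts with the highest signal show how widely their CpG content differed. They are the members among the 15 with the highest signal whose RefSeq and vM1 lengths were within 10% of each other, and each is shown 5′ to 3′ from 150 bp upstream to 50 bp downstream of the vM1 start in mm9, with every CG in capitals.
Atp10d (chr5:72594418-72594617, plus strand): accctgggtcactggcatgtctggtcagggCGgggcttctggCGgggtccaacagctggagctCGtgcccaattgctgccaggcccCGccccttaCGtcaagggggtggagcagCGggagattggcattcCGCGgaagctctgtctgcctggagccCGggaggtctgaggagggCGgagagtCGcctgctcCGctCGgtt
Hyi (chr4:118032445-118032644, plus strand): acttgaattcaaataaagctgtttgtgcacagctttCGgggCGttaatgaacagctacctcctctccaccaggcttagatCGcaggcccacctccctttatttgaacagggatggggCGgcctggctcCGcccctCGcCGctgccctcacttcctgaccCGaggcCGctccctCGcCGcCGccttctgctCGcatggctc
Gm15488 (chr13:112514493-112514692, minus strand): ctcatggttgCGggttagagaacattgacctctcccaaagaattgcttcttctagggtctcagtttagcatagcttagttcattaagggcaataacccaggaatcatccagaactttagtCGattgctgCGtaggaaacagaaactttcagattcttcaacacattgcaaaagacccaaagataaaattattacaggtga
H2-M6-ps (chr17:37108292-37108491, minus strand): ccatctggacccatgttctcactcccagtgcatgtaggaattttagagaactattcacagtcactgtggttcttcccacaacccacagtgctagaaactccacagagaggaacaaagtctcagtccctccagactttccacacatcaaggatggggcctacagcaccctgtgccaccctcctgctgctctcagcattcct
The stretches at Atp10d and Hyi held 13 CpGs each, that of Gm15488 held 3 and that of H2-M6-ps held 0. Their signals were 29.5 at Atp10d, 29.2 at Hyi, 39.7 at Gm15488 and 27.3 at H2-M6-ps. None of the 4 summits, placed by their offset from the RefSeq 5′ end, falls in the printed stretch. They lay 211 bp downstream at Atp10d, 144 bp at Hyi and 218 bp at H2-M6-ps, and at Gm15488 the offset was −1695 bp. The CpG counts above are thus not those of the summits. Over the longer stretch used for the CpG classes described below, the Gm15488 start is high-CpG.

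A second pair of sequences shows a start with and one without a replicated peak among copies of Rps2, the gene of a protein of the small ribosomal subunit. This pair was chosen after the values were seen: Gm6139 had the highest signal among the copies whose lengths matched, and Rps2-ps13 shared the most 16-base words with Rps2 among the unmarked copies that could be printed and whose lengths matched within 10%, not among all unmarked copies. Each is shown from 50 bp upstream to 150 bp into the copy, with CG in capitals.
Gm6139 (chr5:130129611-130129810, minus strand): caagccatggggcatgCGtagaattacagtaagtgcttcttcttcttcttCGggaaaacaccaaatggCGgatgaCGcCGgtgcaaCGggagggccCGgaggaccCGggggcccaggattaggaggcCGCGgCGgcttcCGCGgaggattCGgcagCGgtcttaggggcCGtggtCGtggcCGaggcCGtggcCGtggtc
Rps2-ps13 (chrX:50251715-50251914, plus strand): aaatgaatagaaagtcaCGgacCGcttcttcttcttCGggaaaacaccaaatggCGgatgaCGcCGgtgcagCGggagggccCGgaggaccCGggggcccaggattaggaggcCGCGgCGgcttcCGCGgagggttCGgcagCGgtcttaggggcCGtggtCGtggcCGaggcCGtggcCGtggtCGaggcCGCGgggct
The longest run that both hold letter for letter is 61 bases, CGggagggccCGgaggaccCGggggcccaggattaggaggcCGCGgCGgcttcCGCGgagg. Gm6139 held 20 CpGs in the 200 bases and Rps2-ps13 held 24. Gm6139 had a signal of 6.61 in the replicated list, 5.38 in replicate 1 and 5.56 in replicate 2. Rps2-ps13 had no peak in any mm10 list, although a region of the pooled mm9 list lay at its start.

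Most isolated pseudogene starts carried no H3K4me3 peak. A replicated peak lay within 1 kb of 225 of the 3294 starts, or 6.83% (Wilson 95% interval 6.02 to 7.74), against a background of 50% (17882 of 35772) over genes of all types with a strand. The replicates' own lists marked 263 starts (7.98%, background 50.6%) and 249 starts (7.56%, background 50.4%), a mean of 7.77% ± 0.301 (SD, n = 2). The share was 66.6% at protein-coding starts and 32.4% at lncRNA starts. Among lncRNA starts over 5 kb from any other coding or lncRNA start the share was 19.2% (18.3 to 20.2), and among such coding starts 58.9% (58.1 to 59.7). Of the 478 pseudogene starts within 5 kb of a coding or lncRNA start, 107 were marked (22.4%, 18.9 to 26.3). Intervals here cover counting error over starts only, and starts are not replicates: 4 marked members shared a peak with another, so the 225 starts rested on 223 peaks.

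**Figure D1:**
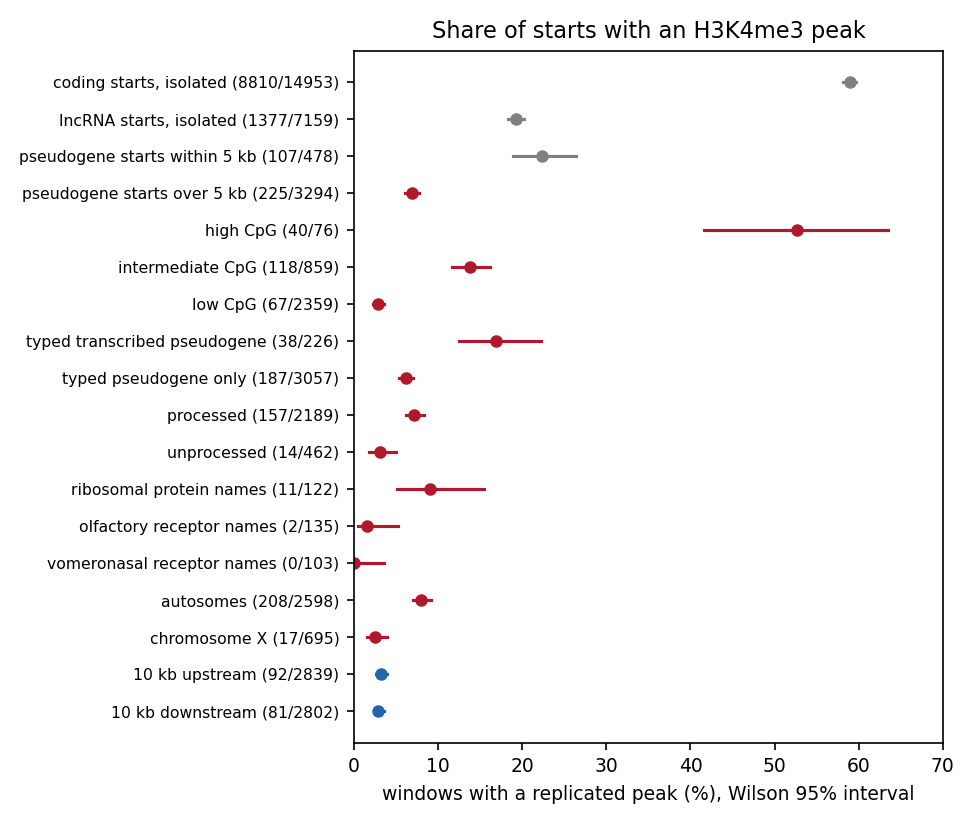
Percentage of windows within 1 kb of a start that overlap a replicated H3K4me3 peak, with Wilson 95% intervals as bars and marked over total in brackets. Grey points are other starts, red points the isolated pseudogene starts and their subsets, and blue points windows 10 kb from the isolated pseudogene starts. The isolated pseudogene starts sit at 6.83%, the high-CpG ones at 52.6% and the low-CpG ones at 2.84%.

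The peaks were at the starts more often than in the sequence around them. Windows of the same width moved 5, 10 or 20 kb upstream or downstream, and kept where they still lay over 5 kb from coding and lncRNA starts, were marked in 2.89% to 3.24% of cases. Without that condition, when shifted windows can fall on coding or lncRNA promoters, the range was 4.10% to 6.38%. The highest of the 6 values with the condition, at 10 kb upstream, had an interval of 2.65 to 3.96, below that of the starts. At the members' own 3′ ends 165 windows (5.01%) held a peak, where 17.4% of all genes did. Median length was 1173 bp for marked and 1023 bp for unmarked members. For most members the 3′ window thus overlaps the 5′ window and can count the same peak. Position by position, a replicated peak covered 4.71% of starts at the 5′ end itself, 1.06% at 1 kb upstream and 1.28% at 1 kb downstream. The summit of the strongest peak lay a median of 98 bp downstream of the start (quartiles −124 and 259 bp). It was downstream at 143 members, upstream at 81, and within 250 bp of the start at 133. None of these peaks reached a coding or lncRNA 5′ end of the gene table. That check did not use the RefSeq promoter table, which had starts 1276 bp from marked Gm12341 and 3187 bp from marked Gm11962.

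**Figure D2:**
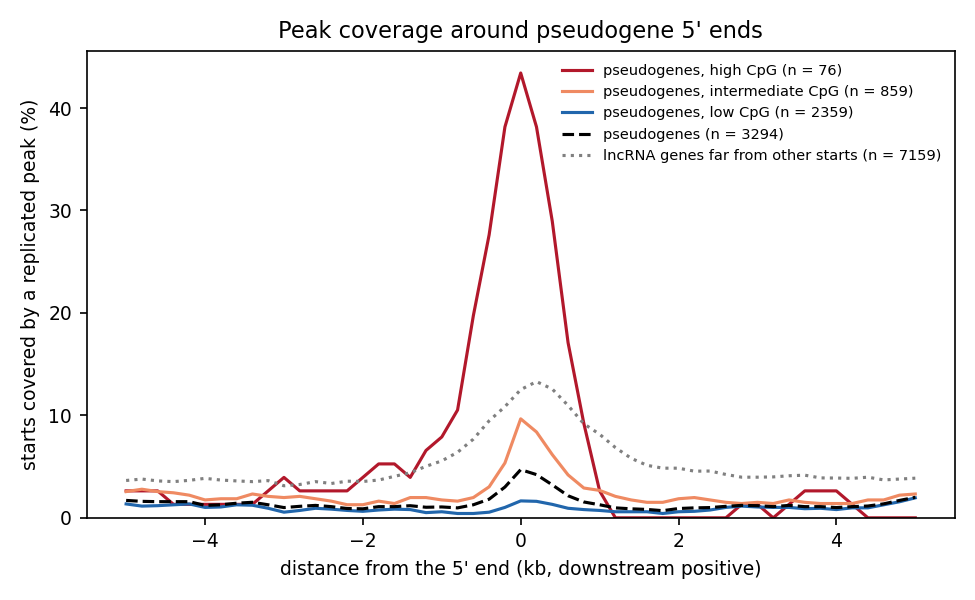
Percentage of starts covered by a replicated peak at each position from 5 kb upstream to 5 kb downstream, in steps of 0.2 kb. Lines stand for all isolated pseudogenes, their CpG classes and the isolated lncRNA genes; coverage of high-CpG pseudogene starts reaches 43.4% at the 5′ end, and that of low-CpG ones 1.65%.

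The marked starts carried weaker and narrower peaks than marked coding and lncRNA starts. Their median signal was 5.61 (quartiles 4.00 and 11.1, range 2.45 to 54.1), against 43.0 at marked coding starts and 7.41 at marked isolated lncRNA starts. The signal exceeded 20 at 24 of them (10.7%), whereas it did so at 78.9% of marked coding starts and 20.8% of marked isolated lncRNA starts. Median peak width was 643 bp, against 2156 bp at coding and 1070 bp at isolated lncRNA starts. In the replicates' own lists the median signal was 4.89 and 4.92, and the median width 424 and 474 bp. Over all peaks of the replicated list, wherever they lie, the median signal was 5.32 and the median width 842 bp. All 62128 peaks of the replicated list have the interval and signal of a pooled peak, so their signals are those of the pooled replicates and not means of the replicate values.

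Of the 225 marked starts, 205 had a peak in both replicate lists, 11 in replicate 1 only, 8 in replicate 2 only and 1 in neither. Over those 205 the signals in the replicates had a Spearman correlation of 0.882, a description across starts that share both libraries. A further 79 starts had a peak in at least one replicate list that did not enter the replicated list. The pooled mm10 list held a peak at 307 starts (9.32%, background 52.2%), and at 2970 starts no mm10 list held one.

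**Figure D3:**
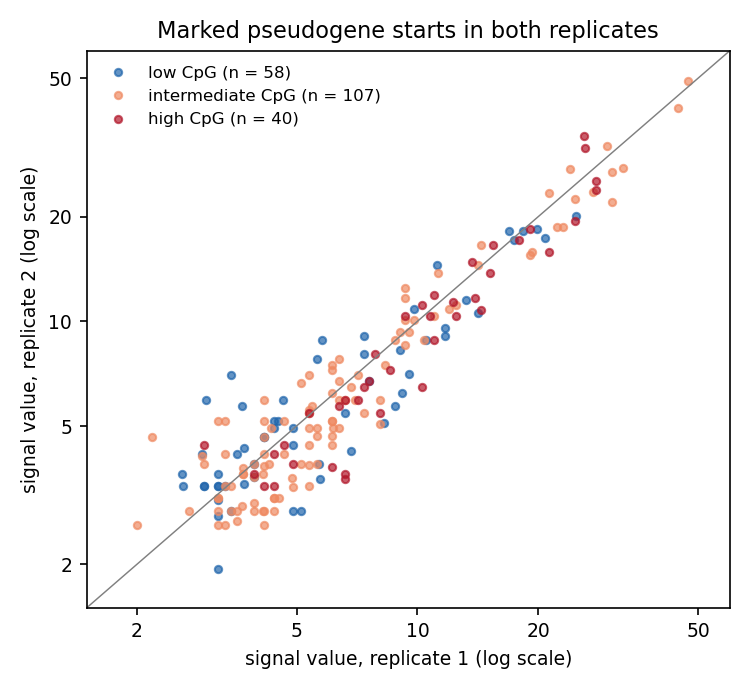
Authors' signal value in replicate 1 against replicate 2, both on log scales, for the 205 marked pseudogene starts with a peak in both replicate lists. Points are starts colored by CpG class and the line marks equal values; starts with a high signal in one replicate were high in the other, and the scatter on these scales is widest among signals up to 5.

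The 15 starts with the highest signal included genes that RefSeq typed as transcribed pseudogenes as well as retrocopies. Smt3h2-ps, a processed copy of the ubiquitin-like modifier Sumo2 on chromosome X, had the highest value: 54.1 in the replicated list, 47.2 in replicate 1 and 49.0 in replicate 2. Its summit, however, had an offset of −1302 bp, upstream of the RefSeq 5′ end and outside the 1 kb window that the flank of the peak reached. The same held for Gm15488 (39.7 with replicates at 25.9 and 34.2, summit at −1695 bp) and Gm15730 (32.6 with 30.6 and 26.9, summit 1622 bp downstream), a processed copy of the ribosomal protein gene Rpl27. At these 3 of the 15 members the summit lay beside the start and not on it.

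4632415L05Rik, a transcribed pseudogene on chromosome 3 that lay 59083 bp from the nearest coding or lncRNA start, came second with 48.5 (44.5 and 40.9 in the replicates). Class I histocompatibility genes, which present peptides to T cells, supplied a pair. H2-Bl had 36.5 (32.6 and 27.6), and H2-M6-ps, a low-CpG start, had 27.3 (24.9 and 20.1). Gm6723, a copy of Lage3, a subunit gene of a tRNA-modifying complex, had 34.7 (29.6 and 31.9). Atp10d, a member of the phospholipid flippase family, had 29.5 (30.6 and 22.0), and Hyi, named for hydroxypyruvate isomerase, had 29.2 (27.9 and 23.8). GENCODE vM1 typed Hyi, 4632415L05Rik, Gm6723 and BC025920 as protein coding. It typed Atp10d, Gm16386 and Zfp133-ps as long intergenic noncoding RNAs, Pisd-ps1 as a processed transcript and H2-Bl as a polymorphic pseudogene. The rest of the 15 were typed as pseudogenes in both annotations. These types were read from the annotations, and whether the genes are intact in the genome of the cells used here was not tested. Zinc finger pseudogenes contributed Zfp389 (29.8, with 24.0 and 27.5) and Zfp133-ps (26.5, with 23.0 and 18.7). Pisd-ps1, a pseudogene of the mitochondrial phosphatidylserine decarboxylase gene Pisd, had 29.0 (27.4 and 23.6). BC025920 (29.5), Gm16386 (26.7) and Gm13034 (32.2), a copy of the chromatin remodeller gene Smarca5, completed the list. The parents' own promoters had signals of 64.1 at Sumo2, 69.4 at Rpl27, 69.4 at Smarca5, 50.3 at Pisd and 29.3 at Lage3. Among these, only the Lage3 copy exceeded its parent. Pisd-ps1 shared 10.1% of its 16-base words with Pisd, under the 20% used below to assign parents. Gm15488 exceeded its closest coding gene, Car5b (11.6), but shared only 4.96% of words with it. Of the 15, only Atp10d had a replicate value above that of the replicated list, and replicate 1 was the higher one at 10.

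**Figure D4:**
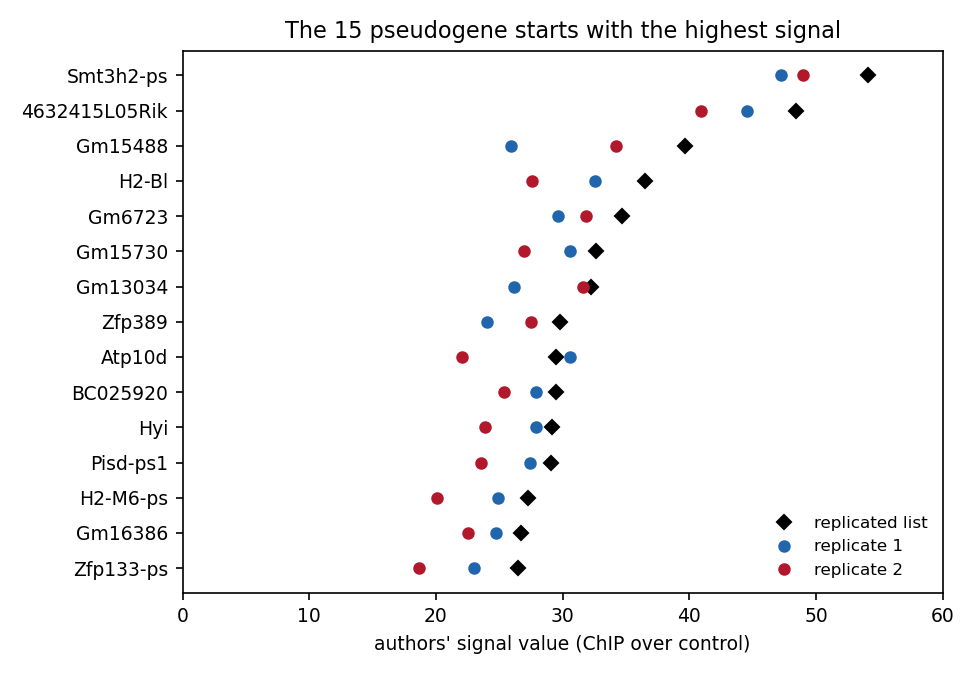
Authors' signal value of the 15 isolated pseudogene starts with the highest value in the replicated list. Diamonds are the replicated list and circles the replicates' own lists; each of the 15 starts had a value in both replicates, from 18.7 at Zfp133-ps in replicate 2 to 49.0 at Smt3h2-ps in replicate 2.

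At the other end, the lowest replicated signals were 2.45 at Gm3828, 2.61 at Rps19-ps3, 2.63 at Gm5893, 2.68 at Gm16210 and 2.73 at Gm10182. Gm11962, a processed pseudogene with a signal of 11.8, lay in the widest peak, 7055 bp. A start of the RefSeq promoter table lay 3187 bp from its 5′ end. The next widest were 3017 bp at BC025920, 2746 bp at H2-M6-ps, 2235 bp at Gm15488 and 2174 bp at 4632415L05Rik.

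CpG content divided the starts into classes with very different shares of peaks. High-CpG starts had a 500 bp window, between 1300 bp upstream and 200 bp downstream of the vM1 start in mm9, where the CpG ratio (observed over expected from base content) exceeded 0.75 and GC content exceeded 55%. Low-CpG starts had no window over a ratio of 0.48, and the others were intermediate. Of 76 high-CpG starts 40 were marked (52.6%, 41.6 to 63.5), of 859 intermediate starts 118 (13.7%, 11.6 to 16.2) and of 2359 low-CpG starts 67 (2.84%, 2.24 to 3.59). In the replicates' lists the high-CpG share was 53.9% and 56.6%, and the low-CpG share 3.39% and 3.26%. The intervals of the classes did not overlap. The windows placed 5 to 20 kb away, of all CpG contents, had shares near that of the low-CpG starts. Position by position, low-CpG starts were covered by a peak in 1.65% of cases at the 5′ end, 0.593% at 1 kb upstream and 0.721% at 1 kb downstream. Median signal at marked starts was 10.3, 5.32 and 4.74 in the same order.

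High-CpG pseudogene starts were nonetheless marked less often than other starts of their class. Among isolated coding starts, 95.6% of the high-CpG, 84.1% of the intermediate and 23.9% of the low-CpG ones had a peak. Among isolated lncRNA starts the shares were 75.6% (65.5 to 83.4), 45.0% (39.3 to 50.9) and 17.8% (15.2 to 20.7). In each class the interval of the pseudogenes lay below that of the lncRNA genes, a comparison of intervals and not a test. A class could be given to 1114 of the 7159 isolated lncRNA starts, and 29.2% of these were marked against 19.2% of all, so this subset was marked more often than the whole. For isolated coding starts it was 13058 of 14953, with 61.2% marked. Class membership also differed, since 2.31% of the pseudogenes were high-CpG against 7.72% of the isolated lncRNA genes with a class and 30.5% of such coding genes.

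Among high-CpG starts, those in sequence that occurs more than once in the genome were seldom marked when nearly all of it was repeated. Reads from near-identical copies may be impossible to place, and no source used here says how the authors handled them. Of 36 high-CpG starts with under 50% of their 32-base words repeated elsewhere in mm9, 24 were marked (66.7%, 50.3 to 79.8). Of 25 with 50% to 90% repeated, 15 were marked, and of 15 with over 90%, 1 was marked (6.67%, 1.19 to 29.8). Of these 15, 7 were closest to the splicing factor gene Cwc22, and 12 had a region of the pooled mm9 list. Over all CpG classes the share did not fall steadily with repetition: it was 4.55% for starts with up to 5% of words repeated, 7.45% for 5% to 20%, 8.74% for 20% to 50%, 7.16% for 50% to 90% and 0.417% (1 of 240) for over 90%. Whether unplaced reads account for unmarked copies was not tested.

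Marked processed pseudogenes had more CpG than unmarked ones on both sides of the start. In the 500 bp downstream of the start, the median CpG ratio was 0.466 at the 157 marked and 0.271 at the 2032 unmarked processed pseudogenes. In the 500 bp upstream it was 0.399 and 0.198. GC content within 1 kb around the vM1 start had medians of 50.6% and 44.6%.

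The origin of the pseudogene and its annotation as transcribed went with further differences. Processed pseudogenes were marked at 157 of 2189 starts (7.17%, 6.16 to 8.33) and unprocessed ones at 14 of 462 (3.03%, 1.81 to 5.02). Within the low-CpG class the counts were 44 of 1529 (2.88%) and 6 of 419 (1.43%), and within the intermediate class 85 of 614 (13.8%) and 6 of 38 (15.8%), with intervals that overlapped in both classes. RefSeq's transcribed pseudogenes were marked at 38 of 226 starts (16.8%, 12.5 to 22.2), with a median signal of 12.2, and those typed only as pseudogene at 187 of 3057 (6.12%, 5.32 to 7.02), with 5.18. Within CpG classes, transcribed pseudogenes had 10 of 17 high-CpG, 18 of 60 intermediate (30.0%, 19.9 to 42.5) and 10 of 149 low-CpG starts marked (6.71%, 3.69 to 11.9). The others had 30 of 59, 100 of 799 (12.5%, 10.4 to 14.99) and 57 of 2199 (2.59%, 2.01 to 3.34). The intervals were apart in the intermediate and low classes and overlapped in the high class.

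Few chemosensory receptor pseudogenes had a peak. Vomeronasal receptors detect pheromones and olfactory receptors detect odorants in neurons of the nose, and both families hold many decayed copies. Of 103 vomeronasal receptor pseudogenes 0 were marked, which the Wilson interval limits to 3.60%. Of 135 olfactory receptor pseudogenes 2 were marked (1.48%, 0.407 to 5.24), the stronger being Olfr718-ps1 with 11.8 (11.7 and 9.59 in the replicates) and a summit 701 bp downstream. Vmn1r-ps1 and Olfr1001-ps1, the first of their groups by alphabet without a replicated peak, had a value in no mm10 list. Most were low-CpG, 98 of the 103 and 131 of the 135, and the 2.84% share of all low-CpG members lay inside both intervals.

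Among the other name groups, pseudogenes named for ribosomal proteins were marked at 11 of 122 starts (9.02%, 5.11 to 15.4). Rpl36-ps1 was the strongest of them with 8.48 (7.34 and 8.03), while Rpl10-ps1 had no peak. Other symbols with a -ps or -rs suffix had 18 of 192 marked (9.38%), with Actg-ps1, a copy of an actin gene, unmarked. Predicted genes with a Gm symbol had 176 of 2623 (6.71%), Gm10015 being the first without a peak. Clone-named genes had 6 of 38 marked (15.8%), with 1700001J11Rik unmarked, and the other symbols 9 of 58 (15.5%), with AA413626 unmarked. Of 5 serpin pseudogenes, which derive from protease inhibitor genes, Serpina3h had a signal of 4.31 (3.92 and 3.58) and Serpina3d-ps had no peak. Among zinc finger pseudogenes 2 of 4 were marked, and of 7 immunoglobulin and T cell receptor segments, Igkv1-115 among them, 0 were.

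Of the stem cell genes looked for by name, only Tdgf1 had a member whose symbol names it as a copy. Copies under other symbols, such as those of predicted genes, were not covered by this search. Tdgf1-ps2, a processed copy of the Nodal co-receptor gene Tdgf1, had no replicated peak, a signal of 3.43 in replicate 1, none in replicate 2, and 1.77 in the pooled list. Mkrn1-ps1, a copy of the ubiquitin ligase gene Mkrn1 that was also on the list of names although Mkrn1 is no stem cell gene, had no peak in any mm10 list. The promoters of their parents, Tdgf1 and Mkrn1, were marked. Tdgf1 had 40.4 (48.0 and 35.8 in the replicates), whereas Mkrn1 had 67.1 with 5.38 in replicate 1 and 59.6 in replicate 2.

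Copies were then assigned to the coding gene with which they shared at least 20% of 16-base words of the transcripts. A parent was found for 1880 members, of which 156 were marked (8.30%), and 116 of 122 pseudogenes with a ribosomal protein name had the gene of that name as the closest. The parents numbered 942, and 760 of the 932 with a strand had a peak at their own promoter (81.5%), with a median signal of 56.1. Of 1647 copies of marked parents 152 were marked, and of 220 copies of parents without a peak 4 were. Peaks stood at most parents' promoters and at few of their copies.

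Copies of Rps2 were the largest group of marked retrocopies. A replicated peak lay at 14 of 37 (37.8%, 24.1 to 53.9), in replicate 1 at 13 and in replicate 2 at 15. The 14 signals ran from 3.02 to 7.48 with a median of 4.96, against 60.2 at the Rps2 promoter itself. Replicate 1 gave a value at 13 of the 14, from 2.18 to 6.36 (median 5.38), and replicate 2 likewise at 13, from 3.11 to 7.77 (median 4.66). All 14 were intermediate in CpG content, as were 27 of the 37 copies, while none of 9 low-CpG copies and not the 1 high-CpG copy was marked. Marked copies shared a median of 60.9% of their words with Rps2 and unmarked ones 47.1%. The unmarked copies include all 9 low-CpG ones, which shared 23.0% to 47.1%, so these medians do not compare copies of like CpG class. Among intermediate copies the ranges overlapped, 26.8% to 87.9% for marked and 35.5% to 91.6% for unmarked ones. The median summit of the marked copies lay 35.5 bp downstream of the start, and the 37 copies were spread over 16 chromosomes. The pooled mm9 list had a region at 25 of the 37. These copies resemble each other: a median of 32.5% of the 32-base words around their starts were repeated (12.5% to 77.9%), so how far reads of one copy were placed at another was not tested.

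Other abundant retrocopies carried no replicated peak. Gapdh, the glycolytic enzyme gene, had the most copies, and 0 of 71 were marked (upper limit of the interval 5.13%). The same held for 0 of 37 copies of Hmgb1, which encodes an abundant chromatin protein, 0 of 22 of Hnrnpa3, 0 of 17 of Rpl23a and 0 of 16 of Ppia. The upper limits of these 4 were 9.41%, 14.9%, 18.4% and 19.4%, above the 6.83% of all members, so the counts do not set these families apart. Of the Gapdh copies 54 were low-CpG and 0 high-CpG. Among 69 parents with 5 or more copies, 42 had no marked copy. Ribosomal protein genes as parents had 48 of 458 copies marked (10.5%, 7.996 to 13.6), and 34 of 421 without Rps2 (8.08%). Rpl29 had 4 of 22 with signals from 3.31 to 17.5, Rpl17 had 3 of 19, and Rpl36 had 4 of 7 with 2.73 to 8.77. The 17.5 was at Gm5218, which spans 13287 bp in RefSeq and 465 bp in vM1. Its RefSeq 5′ end may therefore lie away from the copy, and the pooled mm9 signal at its vM1 start was 2.70. Hmgn1, the gene of a nucleosome-binding protein, had 4 of 4: Gm7862 with 13.4 (12.2 and 11.4), Gm11663 with 8.91 (8.56 and 7.25), Gm8666 with 5.75 (4.16 and 5.96) and Gm15321 with 5.61 (5.63 and 4.92). Each summit of these copies lay 106 to 130 bp downstream of the start. Hmgn1, Rpl36 and the other families named here were singled out after their values were seen.

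**Figure D5:**
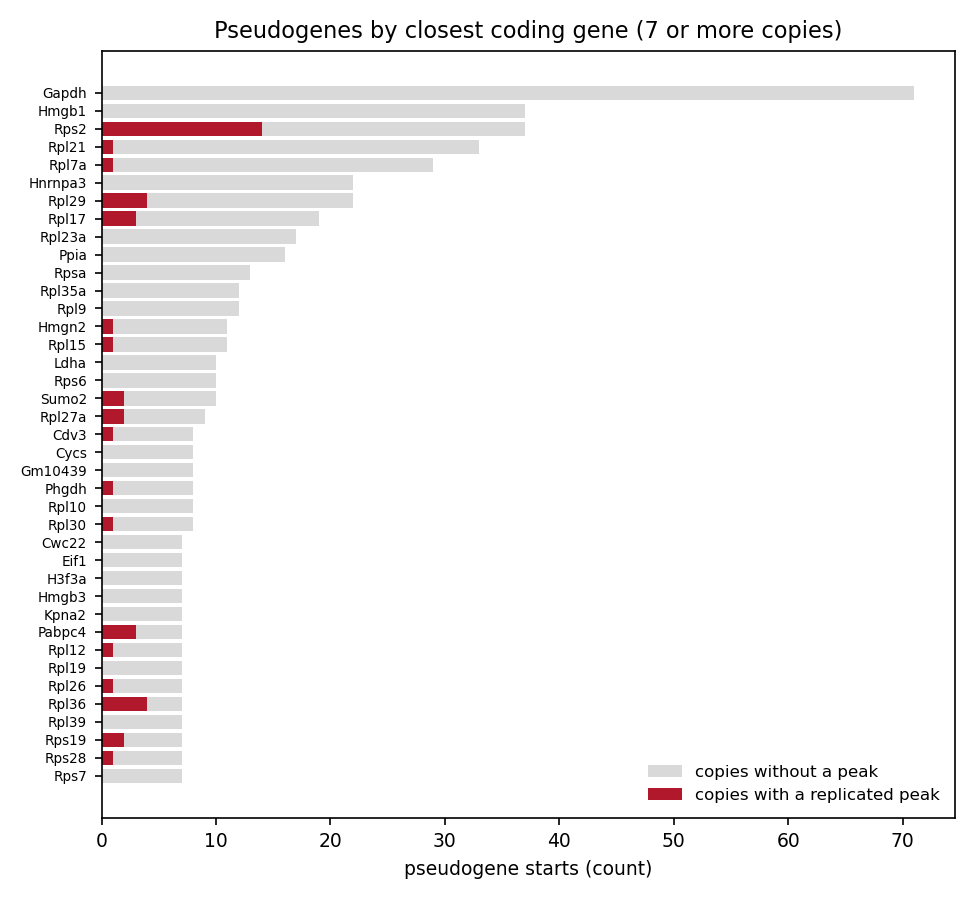
Isolated pseudogene starts grouped by the coding gene with which they share most 16-base words, for genes with 7 or more copies. Each bar is the number of copies, red for those with a replicated peak and grey for those without; Rps2 has 14 of 37 in red, and Gapdh 0 of 71.

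Copies of Smarca5, the gene of an ISWI chromatin remodelling ATPase, formed a local group on chromosome 4. Of 6 copies between 145464210 and 147738969 (mm10), 5 were marked and all 6 were high-CpG. Gm13034 had 32.2 (26.2 and 31.6), Gm13136 had 18.1 (15.4 and 16.6), Smarca5-ps had 14.5 (13.9 and 11.7), Gm13135 had 11.1 (9.30 and 10.4) and Gm13231 had 6.04 (5.38 and 5.44). Gm13140 had no peak in any mm10 list. A median of 65.5% of the 32-base words around these starts were repeated in mm9, and the pooled mm9 list had a region at 0 of the 6. The marked copies lay in a pair of clusters of marked starts on that chromosome. In these, 5 of 14 and 5 of 13 members were marked, against 6.83% of all members. Each cluster was bounded by its own marked starts, so its share is raised by that choice. Copies closest to Pabpc4, which encodes a poly(A)-binding protein, had 3 of 7 marked: Gm11839 with 21.1, Gm11841 with 8.48 and Gm5466 with 7.33. Around these starts 26.1% to 66.0% of the 32-base words were repeated, and around the unmarked ones 83.7% to 92.0%. Unmarked Gm12620 had a signal of 2.85 in replicate 2 and 3.16 in the pooled list. The pooled mm9 list had a region at all 7, and the part of repeated sequence in these counts was not tested.

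Genome position also went with the share of marked starts. It was 12.4% (9.64 to 15.7) for 453 starts 5 to 10 kb from the nearest coding or lncRNA start, 9.22% at 10 to 20 kb, 8.17% at 20 to 50 kb, 3.10% at 50 to 100 kb and 1.15% (0.560 to 2.36) for 607 starts over 100 kb away. On chromosome X, which is present once in these male cells, 17 of 695 starts were marked (2.45%, 1.53 to 3.88), and on autosomes 208 of 2598 (8.01%, 7.02 to 9.11). The gap was seen among low-CpG starts, with 2 of 578 on X (0.346%, 0.0949 to 1.25) and 65 of 1780 on autosomes (3.65%, 2.88 to 4.63). Among intermediate starts it was 11 of 108 (10.2%, 5.78 to 17.3) and 107 of 751 (14.2%, 11.9 to 16.9), and among high-CpG starts 4 of 9 and 36 of 67, with overlapping intervals. Intervals overlapped between starts inside and outside coding genes: 54 of 718 starts inside one were marked (7.52%, 5.81 to 9.68) and 171 of 2576 outside (6.64%, 5.74 to 7.67).

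Short promoter motifs were counted from 250 bp upstream to 50 bp downstream of the vM1 start on both strands. GGGCGG, the core of the Sp1 motif, was found at 25.3% of marked and 6.29% of unmarked pseudogene starts. Windows of the same length in the RefSeq promoter table of GRCm38.p6 held it at 46.2% of coding and 16.3% of lncRNA starts. CCGGAAG, bound by ETS factors, was found at 5.78% and 1.99%, against 11.6% of coding and 3.89% of lncRNA starts. CCAAT was found at 27.1% and 38.4% (38.2% coding, 36.0% lncRNA), and TATAAA at 19.1% and 25.1% (12.6% coding, 15.5% lncRNA). The first pair of motifs contains CpG, so their counts move with the CpG content above and are no sign of a bound factor. GC content within 1 kb around the vM1 start also differed, with medians of 50.8% at marked and 44.3% at unmarked members. Its part in the CCAAT and TATAAA shares was not tested.

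The older mm9 lists marked more starts. A region of the pooled mm9 list lay within 1 kb of the vM1 start of 605 members (18.4%), where the background was 50.9% of vM1 genes. These regions were wider, with a median of 1600 bp against 842 bp in the replicated list, and covered 143 Mb against 76.0 Mb. Of the 225 marked members 197 also had an mm9 region (87.6%). The mm9 starts come from another annotation, so part of the difference may lie in the start used, which was not tested.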

How the data were processed

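H3K4me3 ChIP-seq peak lists of 2 biological replicates of 1 line were used. The labels name separate biological replicates and do not say how they were grown. The authors' mm10 lists (1 per replicate, 1 from pooled replicates, 1 replicated) give a signal value per peak, a ratio of ChIP over control, per the deposited file descriptions. From the deposited mm10 lists the −log10 q-value and the summit of each peak were also read. In the authors' mm9 lists the signal is a ratio as well, with no denominator named. Peak caller and aligner: not given in the sources used here. Depth is unknown.

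RefSeq gene ends (mm10) were joined to strands from GENCODE vM1 by name. The 746 coding and 2813 lncRNA genes without a strand had both ends treated as starts in the distance rule. A start was marked when a peak overlapped 1 kb on either side by at least 1 base; the strongest peak gave the signal. CpG class, repeated words, motifs and printed sequences come from mm9 at the vM1 start, which can differ from the RefSeq mm10 end: lengths were within 10% for 1187 members. Of the 3294, vM1 typed 2755 as a pseudogene and 449 as protein coding. No coordinate was moved between builds.

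Named genes were the 15 highest signals, the strongest and the first unmarked member of each name group of at least 5, copies of stem cell genes, the 5 widest and 5 lowest, and parents of the highest signals and of the stem cell copies. Families and the Rps2 sequences were added after values were seen. Members and lists were chosen with earlier results of these data known. Shares carry Wilson 95% intervals, and no test was made. The overlap and word-counting steps were tested on simulated data. Python 3.11.15, numpy 2.4.6, pandas 2.3.3, scipy 1.17.1, numba 0.67.0 and matplotlib 3.10.9 were used.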

Additional observations from a re-analysis of the deposited data

How the results depend on the processing

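The share of marked starts, 6.83%, was 7.56% to 7.98% with either replicate's own list, 9.32% with the pooled mm10 list and 6.16% with a −log10 q over 5. It was 5.98% with a 500 bp window, 8.59% with 2 kb, 6.25% with the summit inside the window, 7.97% with a distance over 1 kb and 5.95% with over 10 kb. The pooled mm9 list at vM1 starts gave 18.4%. Alternatives chosen after seeing the data gave 7.36% where under 50% of words were repeated, 6.10% where vM1 also typed a pseudogene and 5.90% where lengths were within 10%. The high-CpG share, 52.6%, was 53.9% to 56.6% with either replicate, 59.2% pooled, 55.3% with 2 kb, 47.5% over 10 kb and 73.7% in mm9. The low-CpG share, 2.84%, was 3.26% to 3.39% with either replicate, 4.28% pooled, 2.37% with the stricter q, 2.20% with 500 bp, 4.20% with 2 kb, 2.42% by summit, 3.65% over 1 kb, 2.54% over 10 kb, 2.59% outside coding gene bodies and 7.04% in mm9. In each of these settings the high-CpG share exceeded the low-CpG share. The median signal, 5.61, was 4.89 to 4.92 with either replicate, 4.31 pooled, 6.04 with the stricter q and also outside gene bodies, 5.90 with 500 bp, 5.33 with 2 kb, 5.54 by summit, 5.68 over 1 kb and 5.46 over 10 kb. The median width, 643 bp, was 424 to 474 bp with either replicate, 502 bp pooled and 684 bp with the stricter q. The count of marked Rps2 copies, a result added after values were seen, was 14. In its mm10 alternatives it was 13 to 15, and in mm9 25. Of 65 alternative values, those of the Rps2 count included, 21 moved by less than the SD of the replicates, which with 2 replicates is itself uncertain. Among the 21 were all mm10 values of the Rps2 count. Fewer peaks, smaller windows or fewer starts enter by construction in the stricter settings; for the mm9 list the cause was not tested. No paired analysis was possible because there is 1 group. Depth is unknown, so an unmarked start may be one where no peak was detectable.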
